A study of Drosophila melanogaster with 42 samples.

Results

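RNA polymerase II (RNA Pol II) peaks were the regions that a Dam fusion to RNA Pol II methylated more than Dam alone in adult intestinal stem cells (ISCs) of Drosophila melanogaster. All 6821 peaks of the deposited RNA Pol II list were taken, out of 22355 peaks in 7 lists made the same way, for RNA Pol II, Kismet, Trr, Brm, Pc, HP1 and H1. In DamID a DNA adenine methyltransferase methylates GATC sites near the place where its fusion partner binds, and the methylated fragments are sequenced. The RNA Pol II flies were esg-gal4ts NREGal80>UAS-DamPolII (3 samples) and the Dam-only flies were esg-gal4ts NREGal80>UAS-Dam, of which samples 1 to 3 served in this call. In both groups crosses and adults were held at 18°C, adults 3 days old were moved to 29°C for 1 day to switch on the transgene, and every sample was DNA of 60 dissected intestines. The driver turns transgenes on in esg-expressing progenitors, and the Notch-responsive Gal80 turns them off in enteroblasts, so methylation is directed to the ISCs within whole-gut DNA. Dam-only samples 1 to 3 also served as the reference for the Kismet list, so these lists are not independent.

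The list gives an arm, a start and an end for each peak and carries no height or score. All 3 samples of each group entered 1 call, so no value per sample, no depth and no spread between samples could be given, and no test between conditions was possible. The results are counts and shares over peaks and genes. Their 95% Wilson intervals cover counting error only, and neighbouring genes are not independent. A peak cannot tell whether more stem cells carried polymerase at a place or whether each cell carried more. 6820 peaks lay on arms 2L, 2R, 3L, 3R, 4 and X, and 1 peak of 47 bp lay on the Y chromosome and is not counted further.

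RNA Pol II transcribes protein-coding genes and many noncoding ones. It assembles with general initiation factors at the promoter, often pauses shortly after the start under the hold of NELF and DSIF, and is released by P-TEFb into elongation, so that methylation by a Dam fusion can fall at promoters and over the transcribed body. ISCs self-renew and give rise to enteroblasts, which become enterocytes, and to enteroendocrine cells, under the control of Notch, EGFR and JAK-STAT signals.

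The listed genes of the stem cell state lay under RNA Pol II peaks, often over most of their length. All 13 genes of a list of ISC and progenitor genes had a peak (100%, interval 77.2% to 100%), whereas 46.2% of all 13922 protein-coding genes did when at least 1 bp of the body had to lie in a peak. The stem cell genes are long, and protein-coding genes of the same lengths had a peak in 56.7% of cases. At least 50% of the body lay in peaks in 10 of the 13, against 13.6% of all protein-coding genes and 8.04% of those of the same lengths. The study names several of these genes for its own maps of these samples, and the members were chosen with earlier results of these data known. The list is therefore not independent evidence, and the interval is not that of a random sample of genes.

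The gene esg, a Snail family repressor that holds ISCs undifferentiated, lay wholly in 1 peak of 5549 bp (2L:15331014-15336562, release 6), although its body is 2273 bp long. The HMG-box factor gene Sox21a, 4638 bp long, also lay wholly in 1 peak, of 6754 bp (3L:14102756-14109509). The peak of 5583 bp over mira, which encodes an adaptor for asymmetric division, covered the whole 3322 bp gene, which overlaps Hs6st. These 3 genes were the members that 1 peak held from end to end.

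Longer members were covered by several peaks. Delta, the Notch ligand that marks ISCs, had 5 peaks over 18695 of its 23487 bp (79.6%), the widest of 10635 bp. The Sox factor gene Sox100B had 14601 of 18155 bp in 2 peaks (80.4%), and the forkhead factor gene fkh had 3941 of 4289 bp in 2 peaks (91.9%). The gene of the zinc finger homeodomain protein zfh2, on chromosome 4, had 7 peaks over 27329 of 39065 bp (70.0%). Headcase, the product of heca, acts in the maintenance of progenitor cells, and its gene held more RNA Pol II base pairs than any other gene, with 66460 of 94451 bp in 16 peaks (70.4%). Egfr had 23174 of 37558 bp in 7 peaks (61.7%) and Stat92E, the transcription factor of the JAK-STAT pathway, 11702 of 16989 bp in 5 peaks (68.9%).

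The 3 remaining members had less than 50% of the body in peaks. The receptor gene N had 10654 of 37352 bp in 8 peaks (28.5%), spdo, which controls Notch trafficking, had 571 of 2166 bp (26.4%), and the Cdc25 phosphatase gene stg had 427 of 3975 bp (10.7%). All of the covered base pairs of spdo also lie in PH4alphaEFB, and those of mira are shared with Hs6st, so that the peaks over these 2 genes cannot be given to 1 gene.

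Genes of differentiated gut cells and of other tissues mostly had no RNA Pol II peak. Of 42 enterocyte genes 4 had one (9.52%, interval 3.77% to 22.1%, against 40.7% of protein-coding genes of the same lengths). All listed trypsin, amylase, maltase and mannosidase genes (from alphaTry and betaTry to Amy-p, Mal-A1 and LManIII) were without a peak, as was Vha100-4. The members with a peak were GATAe, a GATA factor also used by ISCs, with 7667 of 10029 bp (76.4%), the brush border myosin gene Myo31DF with 8314 of 14966 bp (55.6%), the POU factor gene nub with 2604 of 40511 bp (6.43%), and Jon65Aiv, a serine protease gene, with 72 of 981 bp (7.34%).

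Of 23 enteroendocrine genes 8 had a peak (34.8%, interval 18.8% to 55.1%, against 55.8% at the same lengths). The proneural gene sc lay wholly in peaks (1438 bp), but that stretch is shared with the overlapping gene CG32816. The ion transport peptide gene ITP had 12380 of 21541 bp (57.5%) and the homeobox gene Ptx1 5646 of 17929 bp (31.5%). The peptide hormone genes Tk, AstA, AstC, Dh31, Mip, CCHa1 and CCHa2 had none, and pros, the factor that sets enteroendocrine fate, had 773 of 79148 bp (0.977%).

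Peaks were also few among genes of other tissues. Visceral muscle genes had one in 4 of 17 cases (23.5%), neuronal genes in 3 of 16 (18.8%), germline genes in 6 of 25 (24.0%) and hemocyte and fat body genes in 1 of 14 (7.14%, the GATA factor gene srp). Odorant, gustatory and ionotropic receptor genes had one in 11 of 185 cases (5.95%), 3 of which shared the covered stretch with another gene throughout (Or46a, Or71a and Gr77a), and cuticle protein genes in 3 of 96 (3.12%). At the same lengths the shares of protein-coding genes ranged between 38.2% for cuticle genes and 59.6% for neuronal genes. None of the 111 copies of replication-dependent histone genes had a peak. They stand in a tandem repeat, where reads may not have been placed.

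**Figure D1:**
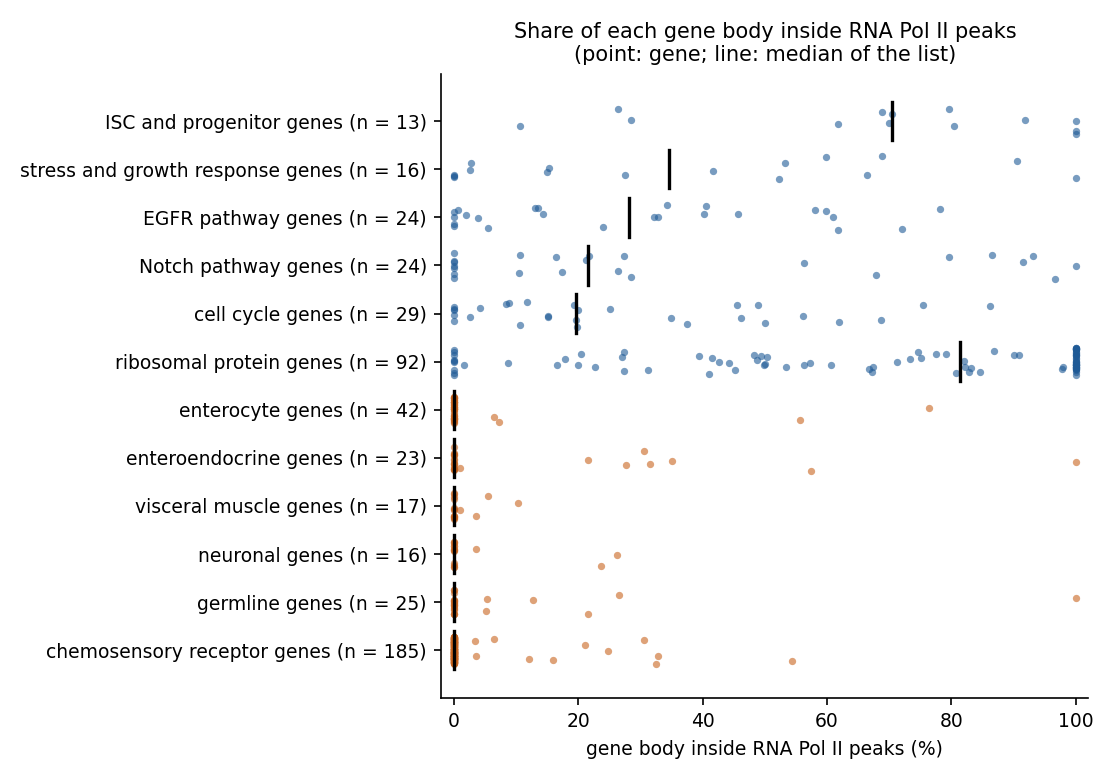
Each point is a gene and gives the share of its body inside RNA Pol II peaks (x axis, %), for 12 gene lists (y axis), with blue for stem cell, signalling, cell cycle and ribosomal lists, orange for differentiated gut and other tissue lists, and black lines for list medians. The median was 70.4% for ISC and progenitor genes and 81.3% for ribosomal protein genes, and 0 for each of the 6 orange lists. Over all 13922 protein-coding genes the median was 0 as well.

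Genes of the signals that control ISCs were more often under RNA Pol II than genes of their lengths. In the EGFR pathway 20 of 24 genes had a peak (83.3%, interval 64.1% to 93.3%, against 57.9% at the same lengths). Among ligands, spi had 3233 of 9416 bp in peaks (34.3%) and vn, the neuregulin-like ligand made by visceral muscle, had 1771 of 32327 bp (5.48%), while Krn had none. Within the cascade, Ras85D had 1804 of 2507 bp (72.0%) and Raf 22099 of 48405 bp (45.7%), and the scaffold gene ksr had none. Coverage of negative regulators varied. The gene sty, which encodes the feedback inhibitor Sprouty, had 18582 of 23783 bp (78.1%), Cbl, a ubiquitin ligase for the receptor, had 4235 of 7293 bp in 1 peak (58.1%), and cic, a repressor relieved by EGFR signalling, had 30582 of 51173 bp (59.8%). The repressor gene aop had 7302 of 22271 bp (32.8%), the secreted inhibitor gene aos had 3180 of 13265 bp (24.0%), all shared with another gene, and the inhibitor gene kek1 had none.

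In the Notch pathway 17 of 24 genes had a peak (70.8%, interval 50.8% to 85.1%, against 48.7%). The lists are not separate, as spdo stands in both the Notch and the ISC list. The ubiquitin ligase gene neur, needed to send the Delta signal, had 17797 of 19124 bp in peaks (93.1%), and the γ-secretase subunit genes aph-1 and pen-2 had 96.7% and 91.5% of the body covered. The second ligand gene Ser and the repressor genes H and gro had none. Of the Enhancer of split targets, E(spl)mgamma-HLH lay wholly in peaks, and E(spl)m5-HLH, E(spl)m8-HLH and E(spl)mdelta-HLH had none.

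Of 16 stress and growth response genes 13 had a peak (81.2%, against 56.8% at the same lengths). The JNK phosphatase gene puc had 15374 of 16963 bp in peaks (90.6%), Myc 12782 of 18539 bp (68.9%), the Fos gene kay 18709 of 28119 bp (66.5%), and Thor, the 4E-BP gene, lay wholly in a peak. All covered base pairs of Myc also lie in another annotated gene. The cytokine genes upd1 and upd2 had none and upd3 had 200 of 7364 bp (2.72%). Of 29 cell cycle genes 24 had a peak (82.8%, against 51.9%), with Cdk1 covered over 86.2% and Cdk4 over 75.4% of the body, and CycD, Cdk2, Mcm3, Mcm5 and Mcm7 without one. Heat shock genes stood at 11 of 22, against 48.0% at the same lengths. Hsp83, the Hsp90 gene, lay wholly in a peak, and no copy of Hsp70 had one. The copies of Hsp70 are near-identical, so reads may not have been placed there.

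Ribosomal protein genes were the large list most often under RNA Pol II. A peak was found in 83 of 92 (90.2%, interval 82.4% to 94.8%), against 39.4% of protein-coding genes of the same lengths. At least 50% of the body lay in peaks in 62 genes (67.4%), and 36 lay wholly in 1 peak. The 9 genes without a peak were RpLP1, RpS26, RpL41, RpS28-like, RpL37-2, RpL22-like, RpS5b, RpL10Aa and RpS10a. The last 6 are paralogues of other members, and the related RpS28b, RpL37-1, RpL22, RpS5a, RpL10Ab and RpS10b had peaks over 100%, 41.1%, 100%, 16.6%, 74.6% and 42.6% of the body.

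This pattern did not hold for every pair of ribosomal paralogues. RpL24-like, whose yeast relative acts in ribosome assembly, lay wholly in peaks, against 17.9% of RpL24. RpL34a lay wholly in peaks as well, against 41.5% of RpL34b. Both RpS14a and RpS14b, and both RpS15Aa and RpS15Ab, lay wholly in peaks. These pairs were chosen after their values were seen, and near-identical copies may share reads.

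The genes of the transcription machinery itself were covered unevenly. Of the 12 subunit genes of RNA Pol II 9 had a peak (75%, interval 46.8% to 91.1%, against 35.1%). Polr2A, which encodes the largest subunit, had 7008 of 7527 bp in peaks (93.1%). The part of transgene DNA in this value was not tested. The other covered subunit genes ranged between 1.57% for Polr2H and 51.4% for Polr2K, and Polr2E, Polr2F and Polr2L had none. Initiation factor genes had a peak in 21 of 28 cases (75%, against 45.5%), of which TfIIA-L had 1947 of 5352 bp covered, and Taf1, which encodes the largest TFIID subunit, had none. Pausing and elongation factor genes had one in 17 of 22 cases (77.3%, against 52.3%). The DSIF gene spt4 lay wholly in a peak, Su(Tpl), the ELL elongation factor gene, had 10961 of 20291 bp covered, all of them shared with another gene, and Cdk9, the kinase of P-TEFb, had none. With at least 50% of the body required, 2 of these 22 genes remained (9.09%, against 11.1% at the same lengths). This list thus stood above genes of its lengths by the 1 bp rule and below them by the 50% rule. By the 50% rule the subunit genes stood at 2 of 12 (16.7%, against 16.1%). Initiation factor genes stood at 5 of 28 (17.9%, against 15.6%), so both lists were then close to genes of their lengths.

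**Figure D2:**
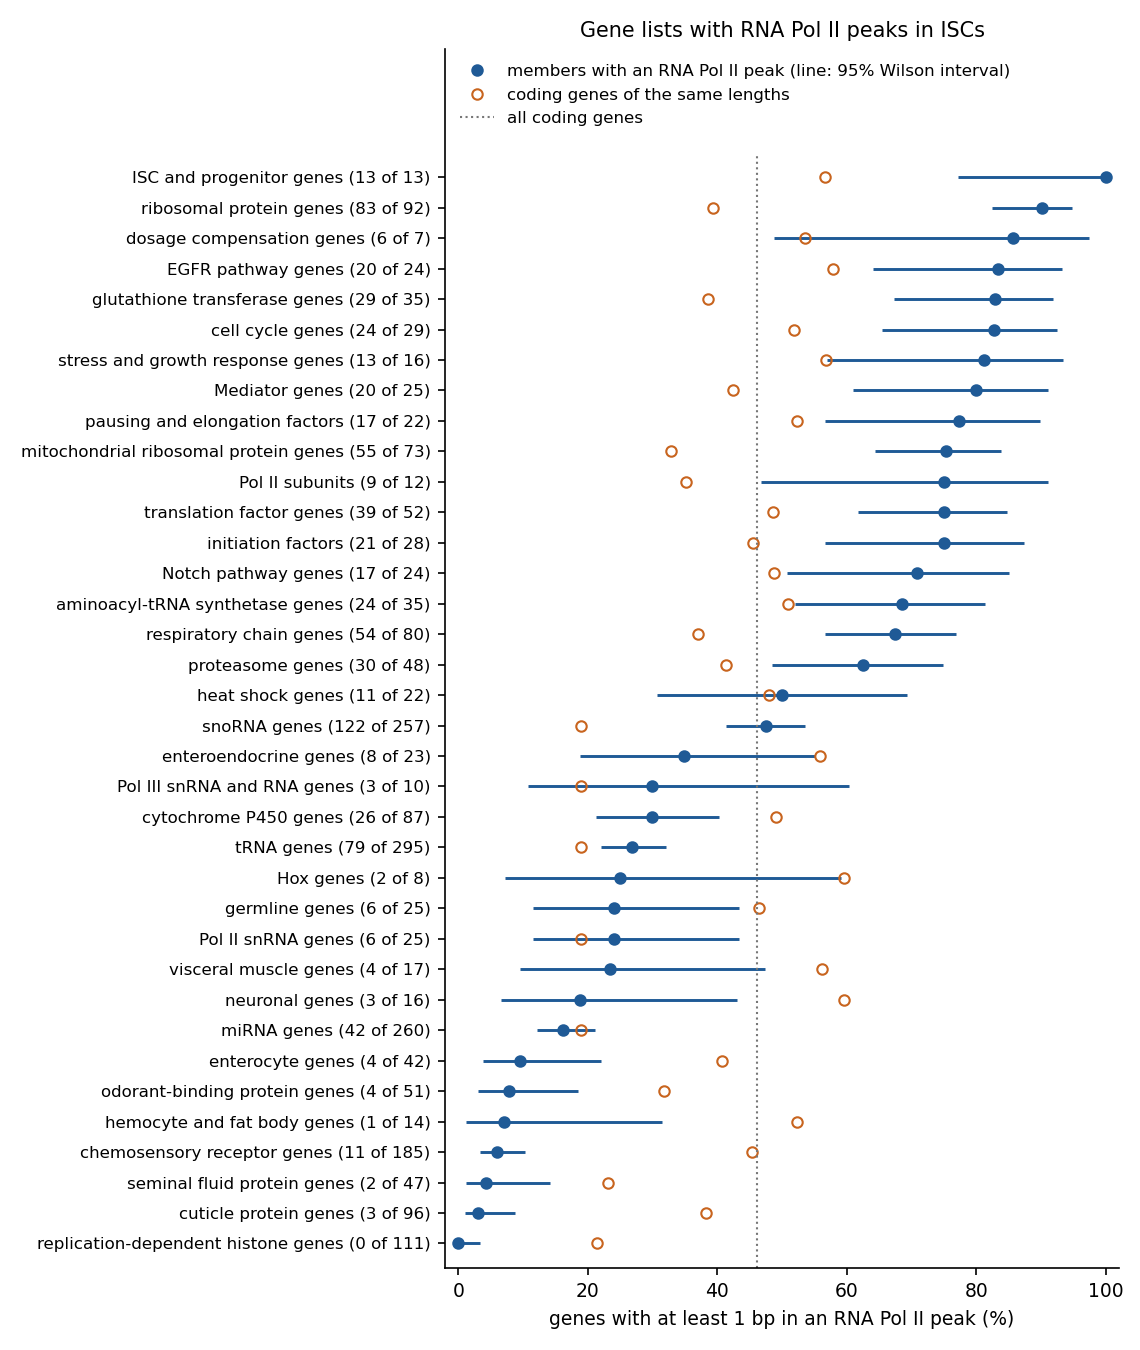
Share of genes in each of 36 lists with at least 1 bp in an RNA Pol II peak (filled points with 95% Wilson intervals, x axis in %), the share among protein-coding genes of the same lengths (open points) and the share of all protein-coding genes (dotted line at 46.2%). Genes shorter than any coding gene, such as most tRNA, miRNA and snoRNA genes, were set against the shortest coding class. ISC, ribosomal, EGFR and cell cycle lists lay above the open points, and enterocyte, chemosensory receptor and cuticle lists lay below them.

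RNA Pol II peaks reached 7344 of 17684 annotated genes of all types (41.5%), and the share differed by gene type. Protein-coding genes had a peak in 6438 of 13922 cases (46.2%, interval 45.4% to 47.1%). Long noncoding RNA genes had one in 340 of 1959 cases (17.4%, interval 15.7% to 19.1%), and 76 of these stood apart from coding genes in peaks that touched no coding gene. Among genes of 1000 to 2000 bp 21.5% of the long noncoding and 42.8% of the coding genes had a peak, and among genes of 20000 bp and more 52.0% (interval 33.5% to 70.0%) and 58.8% (55.7% to 61.8%). Antisense RNA genes had a peak in 233 of 503 cases (46.3%), but all except 1 of the 503 overlap a coding gene, and methylation carries no strand.

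Small RNA genes with a peak mostly shared the covered stretch with another gene, as 36 of 42 miRNA genes did. Of 269 snoRNA genes 124 had a peak (46.1%), and 213 of the 269 lie inside or across a coding gene. All 7 annotated Uhg genes, noncoding hosts that carry snoRNAs in their introns, had a peak, and Uhg2, Uhg4, Uhg7 and Uhg8 lay wholly in one. The peak that touched the most genes, 7819 bp on 2L (2L:9889995-9897813), touched 11 genes, 10 of them whole, among them Uhg2 with 4 snoRNA genes and RpS2. miRNA genes had a peak in 42 of 260 cases (16.2%).

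Genes of other RNA polymerases and snRNA genes had a peak less often than coding genes, but they are short, and 18.9% of the shortest coding genes had one. tRNA genes, which RNA polymerase III transcribes, had a peak in 78 of 290 cases (26.9%, interval 22.1% to 32.3%), of which 15 stood apart from coding genes in peaks without a coding gene. rRNA genes had none in 98. Most rRNA genes are repeated, and reads may not have been placed there. Spliceosomal and other snRNA genes of RNA Pol II had a peak in 6 of 25 cases (24.0%), and several of these are near-identical copies. Pseudogenes had one in 46 of 245 cases (18.8%).

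Longer genes had an RNA Pol II peak more often, but beyond the third length class fewer of them had at least 50% of the body in peaks. Coding genes were split into 10 length classes of nearly equal number. In the shortest, 168 to 725 bp, 18.9% had a peak (interval 17.0% to 21.1%), in the ninth 62.0% (59.4% to 64.5%) and in the longest 59.3% (56.7% to 61.8%). The share with at least 50% of the body in peaks was highest in the third class, 1024 to 1342 bp, at 22.0%, and lowest in the longest, at 6.53%. The mean share of the body in peaks, genes without a peak included, was 14.7% in the shortest class, 23.2% in the third, 17.6% in the ninth and 12.3% in the longest. Genes wholly in 1 peak made up 10.9% of the second class and none of the longest. Coding genes with a peak had a median length of 2869 bp (middle 50% between 1542 and 6852 bp), against 1732 bp without a peak (955 to 3554 bp). A short gene offers fewer GATC sites for a peak, and the part of that in these shares was not tested.

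The longest genes without a peak and the longest under 1 peak differed in place. Myo81F, Pzl, lovit, CG17684 and DIP-lambda, of 379081 to 1965857 bp, had no RNA Pol II peak and lie next to centromeres, where HP1 peaks covered 186925 bp of DIP-lambda and 1292249 bp of Myo81F. The longest coding genes wholly in 1 RNA Pol II peak were Pdcd4, a homologue of a mammalian translation inhibitor, at 9830 bp, 14-3-3epsilon, a phosphoserine-binding adaptor, at 8020 bp, CG7530 at 6750 bp, Bacc at 5531 bp and Sox21a.

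**Figure D3:**
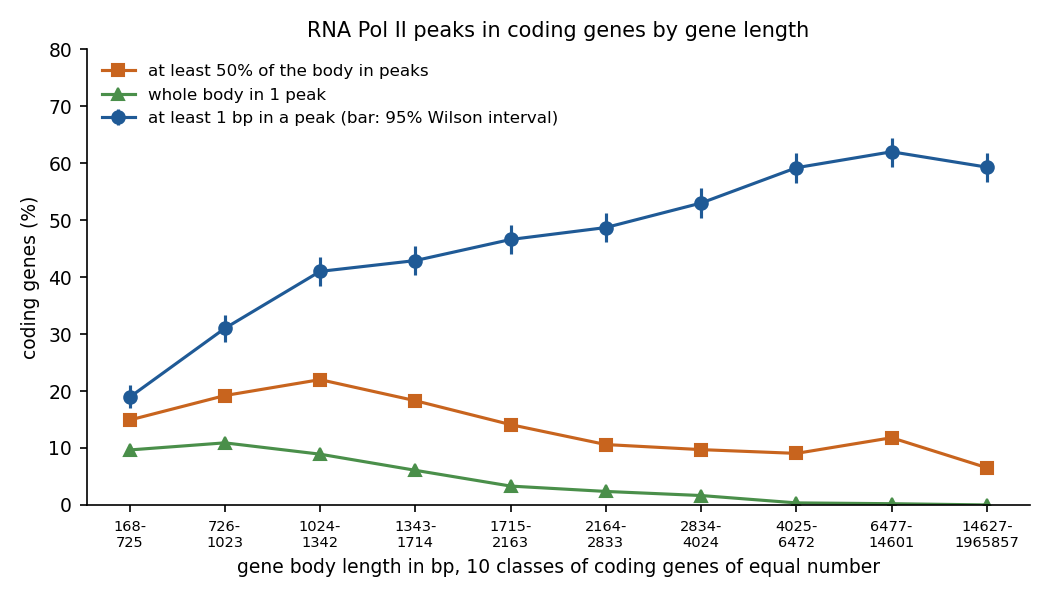
Share of protein-coding genes (y axis, %) with at least 1 bp in an RNA Pol II peak (circles with 95% Wilson intervals), at least 50% of the body in peaks (squares) and the whole body in 1 peak (triangles), in 10 classes of gene length (x axis, bp). The circles climb between 18.9% in the shortest and 62.0% in the ninth class, while the squares peak at 22.0% in the third.

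RNA Pol II peaks sat at gene ends more often than in gene middles. Strand was not used here, so starts and ends were pooled. In the 5309 coding genes of at least 3000 bp, 29.0% of the 500 bp windows just inside a gene end touched a peak. Of the windows just outside 30.0% did, against 15.3% of windows at the gene middle. A peak that reaches over from a neighbouring gene can also touch an end window, and the part of that in these shares was not tested. Of the 3100 such genes with a peak, 2142 had it at 1 end (69.1%), 469 at both ends (15.1%) and 489 at neither (15.8%). Split into 20 equal bins, these 3100 genes had on average 41.2% of the outermost bins inside peaks, falling to 21.1% in the ninth bin counted inwards.

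**Figure D4:**
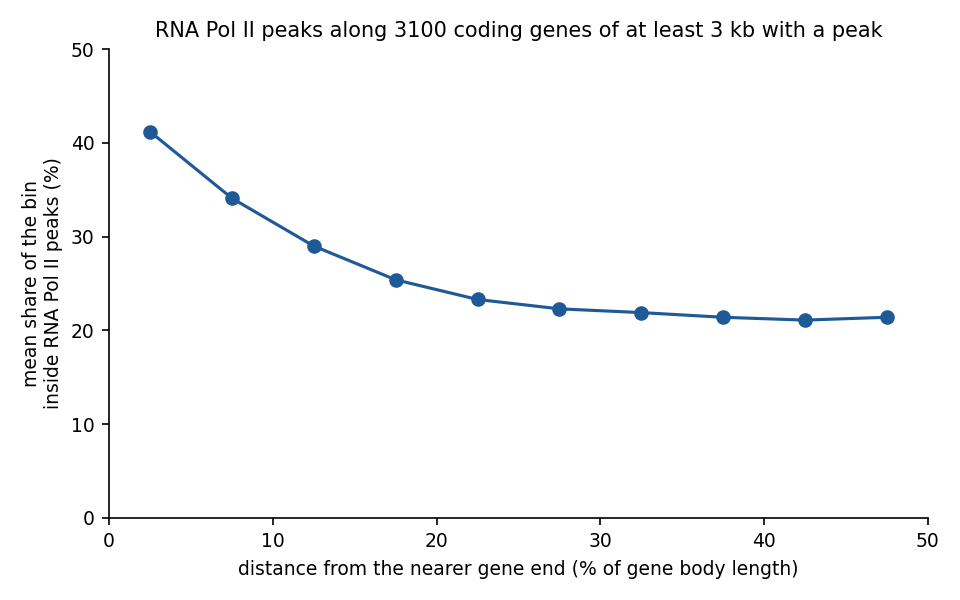
Mean share of a bin inside RNA Pol II peaks (y axis, %) against the distance of the bin from the nearer gene end (x axis, % of body length) in 3100 coding genes of at least 3000 bp with a peak. The share is 41.2% at the gene end and between 21.1% and 21.9% in the 4 innermost bins.

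Almost all peaks touched a gene. Of 6820 peaks 6455 had at least 1 bp in a gene (94.6%) and 6318 in a coding gene (92.6%). By base pairs 85.2% of the peaks lay in genes, against 69.5% of the 6 arms. A peak held at least 1 whole gene in 717 cases (10.5%), spanned a gene end without holding a whole gene in 2895 cases (42.4%), lay inside a gene in 2843 cases (41.7%) and lay outside genes in 365 cases (5.35%). Median widths in the same order were 3149, 1314, 950 and 790 bp. By number of genes, 3383 peaks touched exactly 1 gene (49.6%), 2250 touched 2 genes (33.0%) and 86 touched 5 or more.

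The 365 peaks outside genes were mostly near one. The median distance to the nearest gene was 1706 bp, 146 peaks lay within 1 kb and 35 lay more than 10000 bp away (9.59%). The widest, 13993 bp on 3L (3L:107225-121217), lay 8849 bp from CG12483 and 3791 bp from lncRNA:CR45401. A peak of 6967 bp on 2R lay 12521 bp from shg, the E-cadherin gene, and one of 5919 bp on 3R lay 2609 bp from foxo. Outside genes 10.4% of RNA Pol II peaks touched a Pc peak, against 3.77% of those with a whole gene, 2.35% at gene ends and 3.80% inside genes.

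RNA Pol II peaks had a median width of 1234 bp, and the middle 50% were between 722 and 2353 bp. The narrowest was 9 bp, 38 peaks were under 100 bp, and the widest was 25432 bp. The 87 peaks of 10000 bp or more held 8.60% of the peak base pairs. The other lists had median widths of 656 bp for Trr, 259 bp for Brm, 919 bp for Pc, 1448 bp for HP1 and 279 bp for H1. In all the peaks covered 13282231 bp, or 9.93% of the arms. The median gap between neighbours was 3985 bp, 932 gaps were under 500 bp, and the longest was 1447300 bp.

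Several of the widest peaks lay over a long gene. The widest (3R:27128933-27154364) touched CG6051 and Men-b, which encodes a malic enzyme. The next lay inside heca (20902 bp). A peak of 19630 bp (2L:5288634-5308263) covered most of vri, a bZIP repressor of the circadian clock, and one of 19534 bp lay in cic. The peak of 19958 bp on X touched GCS2alpha and a run of 6 related genes, CG17450, CG33502, CG32820, CG32857, CG32819 and CG32500, 6 of these 7 whole. The placing of reads among related genes is uncertain. This peak was the only one of the 5 widest that no peak of another list touched.

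By base pairs the leading genes after heca were bun, a TSC22 family growth regulator (48006 of 91072 bp in 13 peaks), SNF4Agamma, the γ subunit of AMP kinase (46870 of 73531 bp in 13 peaks), Tet, a homologue of methylcytosine oxidases (39807 bp), lncRNA:CR44999 (37406 bp), Tlk, a Tousled-like kinase (35331 bp), caps, a leucine-rich repeat membrane protein (33539 bp), and Pdp1, a bZIP activator of the clock (32564 bp). CG46467 and Glut4EF overlap and share the same 34869 bp.

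RNA Pol II peaks had a similar density on all arms. There were 50.7 peaks per Mb on 2L, 52.8 on 2R, 48.6 on 3L, 48.5 on 3R, 45.4 on chromosome 4 and 55.9 on X. On X 50.9% of coding genes had a peak (interval 48.8% to 53.0%), against 45.3% on the 4 large autosome arms (44.4% to 46.2%). By the 50% rule the shares were 13.6% on X and 13.7% on the autosome arms, and the median coding gene was longer on X (2520 bp, against 2080 bp). The share on 2L includes the histone repeat.

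Next to the centromeres peaks were sparse, as were genes. In the 5 Mb nearest the centromere of each large arm there were 19.2 peaks per Mb, against 58.4 in the rest, and 41.2 coding genes per Mb, against 119. Of the coding genes there 42.4% had a peak (interval 39.4% to 45.4%), against 46.5% elsewhere (45.6% to 47.3%). On chromosome 4, which is largely heterochromatic, 47 of 80 coding genes had a peak (58.8%, interval 47.8% to 68.9%), but 6.25% had at least 50% of the body covered. The median coding gene of chromosome 4 was 10090 bp long.

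Of the lists other than Kismet, which is not described here, Trr was the one most often found at RNA Pol II peaks. Trr, the H3K4 monomethyltransferase related to mammalian MLL3 and MLL4, touched 3428 of 6820 peaks (50.3%, interval 49.1% to 51.5%) and covered 33.7% of their base pairs, while Trr peaks covered 4.08% of the arms. Conversely 84.4% of Trr peaks and 82.0% of their base pairs lay at RNA Pol II peaks. Brm, the ATPase of the SWI/SNF remodelling complexes, touched 875 peaks (12.8%, interval 12.1% to 13.6%) and covered 2.22% of the base pairs, with 0.416% of the arms in Brm peaks. Of Brm peaks 62.3% touched an RNA Pol II peak. Most of the RNA Pol II peaks with Brm also had Trr (807 of 875), and 68 had Brm without Trr.

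Wider RNA Pol II peaks more often had a peak of Trr or Brm. Peaks with Trr had a median width of 1928 bp, against 920 bp without, and peaks with Brm 2652 bp, against 1151 bp without. Trr was found at 30.5% of the peaks under 500 bp and at 89.7% of those of 10000 bp and more, and Brm at 7.52% and 49.4%. A wider peak has more room to be touched, and the part of that in these shares was not tested. By base pairs Trr covered 22.0%, 20.1%, 23.9%, 36.9%, 43.4% and 40.6% of the 6 width classes, narrowest first. Brm covered 4.28% of the narrowest class and between 1.71% and 2.41% of the others.

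**Figure D5:**
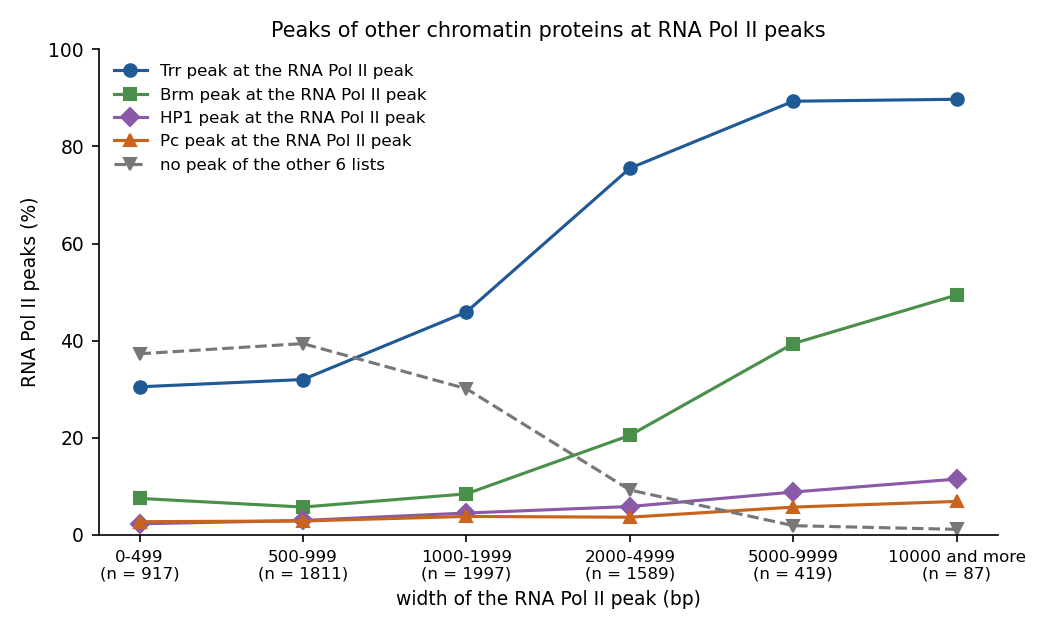
Share of RNA Pol II peaks (y axis, %) that touched a peak of Trr, Brm, HP1 or Pc, or of none of the other 6 lists, by the width of the RNA Pol II peak (x axis, bp). Trr stood at 30.5% in the narrowest and 89.7% in the widest class, Brm at 7.52% and 49.4%, and peaks with no other protein at 37.3% and 1.15%.

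At the level of genes, 3009 of 3229 coding genes with a Trr peak also had an RNA Pol II peak (93.2%, interval 92.3% to 94.0%). The same held for 869 of 971 with a Brm peak (89.5%, interval 87.4% to 91.3%), against 46.2% of all coding genes, not matched for length. Some base pairs lay in both lists in 2903 of the 3009 genes (96.5%) and in 676 of the 869 genes (77.8%). The genes that shared the most base pairs between RNA Pol II and Trr were SNF4Agamma (21370 bp), tara, a trithorax group gene (18933 bp), and vri, in which 18495 of 22280 bp lay in both. For Brm they were rdx, a substrate adaptor for ubiquitin ligation (4933 bp), lncRNA:CR44357 (3948 bp) and CG1677 (3692 bp), which overlap each other. RNA Pol II peaks took up 513 of the 8638 bp of trr itself.

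Few RNA Pol II peaks touched a peak of Pc, HP1 or H1. Pc, the reader of H3K27 methylation, touched 241 peaks (3.53%, interval 3.12% to 4.00%) and covered 1.14% of their base pairs, while Pc peaks covered 3.92% of the arms. HP1, the reader of H3K9 methylation, touched 305 peaks (4.47%, interval 4.01% to 4.99%) and also covered 1.14% of the base pairs, against 10.3% of the arms. The linker histone H1 list holds 129 peaks, and 1 of them met an RNA Pol II peak, over 4 bp in Pgant5.

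Genes within Pc domains seldom had an RNA Pol II peak. Of 700 coding genes with any Pc peak 305 had one (43.6%, interval 39.9% to 47.3%), close to the 46.2% of all coding genes, not matched for length. Of the 221 genes with at least 50% of the body in Pc peaks, however, 31 had an RNA Pol II peak (14.0%). 4 of these had at least 50% of the body in both lists. They were drm, an odd-skipped family zinc finger gene in which RNA Pol II peaks took up 7181 of 9177 bp and Pc peaks 8725 bp, and CG13321, CG43815 and CG43880. All 8 Hox genes had Pc peaks, and 2 of them, Abd-B and lab, also had an RNA Pol II peak. The EGFR effector gene pnt had 18000 of 55937 bp under RNA Pol II and 26602 bp under Pc, of which 4898 bp were shared, and CG17574 shared 4043 bp. Of nub, 30729 of 40511 bp lay in Pc peaks, and of pros 20038 bp.

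HP1 met RNA Pol II most often on chromosome 4. There HP1 touched 32 of 58 RNA Pol II peaks (55.2%), in the proximal 5 Mb of the large arms 52 of 479 (10.9%) and elsewhere 221 (3.52%). Of 679 coding genes with an HP1 peak 414 had an RNA Pol II peak (61.0%, interval 57.3% to 64.6%), against 46.2% of all coding genes. In 244 of these 414 genes (58.9%) some base pairs lay in both lists. Of 174 genes with at least 50% of the body in HP1 peaks 72 had an RNA Pol II peak (41.4%). The genes were not matched for length, and the part of length in these shares was not tested. CG11360 and zfh2, both on chromosome 4, shared 9594 and 9114 bp between the lists, and sov, a zinc finger gene on X that acts in heterochromatin, shared 2178 bp. In CG11360 the RNA Pol II peak of 10164 bp lay wholly in HP1 peaks.

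Many RNA Pol II peaks met no other mapped protein. 1812 peaks touched none of the other 6 lists (26.6%), and with a median width of 892 bp they held 14.6% of the RNA Pol II base pairs. 1.38% of them lay outside genes, against 5.35% of all RNA Pol II peaks. With Kismet left aside, 3068 peaks touched none of the Trr, Brm, Pc, HP1 and H1 lists (45.0%). Of the 83 ribosomal protein genes with an RNA Pol II peak 65 had no peak of another protein (78.3%), against 40.8% of the 6438 coding genes with one. For initiation factor genes it was 19 of 21 (90.5%), and for ISC and progenitor genes none of 13. Kismet, called against the same Dam-only samples, is among the 6 lists. Kismet peaks lay in all 13 ISC genes, in 0 of 28 initiation factor genes and in 7 of 92 ribosomal protein genes. Trr peaks lay in 9, 2 and 8 genes of these lists. These sets were not matched for length. The median member was 1315 bp long in the ribosomal list, 1768 bp in the initiation factor list and 16989 bp in the ISC list. Coding genes with an RNA Pol II peak had a median of 2869 bp. The part of length in these shares was not tested.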

How the data were processed

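Targeted DamID samples of RNA Pol II and Dam alone (3 each) entered the peak list. Per the paper's methods the authors mapped reads with Bowtie2 to release 6 of the genome, extended them to 300 nt or the first GATC site, counted them per site with bedtools, discarded sites below 5 counts, and compared both groups by DESeq2. At least 2 consecutive sites with an adjusted p under 0.01 and a positive fold change were merged. The deposited values are positions only, so depth is unknown.

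Genes are the 17684 on 6 arms, of 17872, in a RefSeq table of release 6. FlyBase identifiers were matched by symbol for 100% of them. A gene had a peak if at least 1 bp of its body did. Same-length shares weight the shares of 10 coding length classes by the list's lengths. Genes under 168 bp, shorter than any coding gene, were put in the shortest class. The arm ends at the last gene or peak. Shares have Wilson intervals (Python 3.11.15, SciPy 1.17.1, pandas 2.3.3, NumPy 2.4.6, matplotlib 3.10.9). Overlaps were tested on 4000 simulated intervals with 0 mismatches. Named genes are the 10 with the most RNA Pol II base pairs, those under the 5 widest peaks, the 5 longest without and 5 longest wholly in a peak, up to 4 covered and 4 uncovered members of each list, the 3 sharing most with each protein, and genes the study names for DamID. Other genes were chosen once values were known. The members and the lists were chosen with earlier results of these data known. Promoter sequences, strand, signal tracks and RNA-seq were not analysed here, and position was therefore taken from either gene end.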

Additional observations from a re-analysis of the deposited data

How the results depend on the processing

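Neither a fit without 1 replicate nor a value per sample could be had, since the list pools the samples. No paired analysis was possible because the samples of each group were merged into 1 list. The count of 7344 genes with a peak was 2543 with at least 50% of the body in peaks, 1085 with the whole body in 1 peak, 1933 with both edges of 1 peak inside the gene and 3228 among genes that overlap no other gene. It stayed within 1.5 times the count with bodies extended by 1 kb (8718), with peaks of at least the median width (5011) and without chromosome 4 and the proximal 5 Mb (6788). The share of coding genes, 46.2%, was 13.6%, 4.35%, 13.4% and 40.9% under the first 4 of these, and 53.8%, 31.1% and 46.5% under the last 3. The genic share of 85.2% became 83.0% with coding bodies only, 94.6% by peaks and 86.1% for wide peaks. The median width of 1234 bp became 1418 bp with peaks under 500 bp apart joined, and 1235 bp without chromosome 4 and proximal regions.

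With at least 50% of the RNA Pol II peak shared, Trr was at 25.3%, Brm at 1.25%, Pc at 1.25%, HP1 at 0.821% and H1 at 0. By base pairs they were at 33.7%, 2.22%, 1.14%, 1.14% and 0.0000301%. Among peaks at or above the median width of each list Trr stayed within the interval of its main share, and Brm was at 11.5%, Pc at 2.29%, HP1 at 1.06% and H1 at 0, so that HP1 moved below Pc. End windows were at 27.8% with 250 bp and 30.7% with 1000 bp, and middle windows at 14.0% and 18.0%. Of 36 gene lists 32 stayed on the same side of the share at the same lengths under the 1 bp and 50% rules. For the tRNA, miRNA, snoRNA and snRNA lists that share is the one of the shortest coding class. The 4 exceptions were pausing and elongation factors, dosage compensation, miRNA and aminoacyl-tRNA synthetase genes.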

Other observations

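9 further lists were added after the values were seen. Mitochondrial ribosomal protein genes had an RNA Pol II peak in 55 of 73 cases (75.3%, interval 64.4% to 83.8%, against 32.9% of coding genes of the same lengths), respiratory chain genes in 54 of 80 (67.5%, against 37.0%), Mediator genes in 20 of 25 (interval 60.9% to 91.1%, against 42.4%) and aminoacyl-tRNA synthetase genes in 24 of 35 (68.6%, against 51.0%). Of the other lists, translation factor genes stood at 39 of 52 (75%, against 48.6%), proteasome genes at 30 of 48 (62.5%, against 41.3%) and dosage compensation genes at 6 of 7 (85.7%, against 53.6%), with lncRNA:roX1 without a peak and lncRNA:roX2 covered over 222 of 1368 bp. The snoRNA genes matched by name stood at 122 of 257 (47.5%), and in 118 of the 122 the covered base pairs lay in another gene too. Their median length was 134 bp, below that of any coding gene. The nearest coding class, 168 to 725 bp, stood at 18.9%.

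The families of detoxifying enzymes differed. Glutathione transferase genes, which conjugate electrophiles, had an RNA Pol II peak in 29 of 35 cases (82.9%, interval 67.3% to 91.9%, against 38.5%), and cytochrome P450 genes, which oxidise substrates, in 26 of 87 (29.9%, interval 21.3% to 40.2%, against 49.1%). Trr peaks were found in 22 of the 35 glutathione transferase genes (62.9%) and in 25 of the 87 P450 genes (28.7%), against 23.2% of all coding genes. Odorant-binding protein genes stood at 4 of 51 (7.84%, against 31.7% at the same lengths) and seminal fluid protein genes at 2 of 47 (4.26%, against 23.1%), Sfp33A3 and Acp95EF, both only through base pairs shared with another gene.

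Of the genes of 5 fused proteins, trr and kis were covered over most of the body in the list of their own protein. The gene trr had 50.7% in Trr peaks, 5.94% in RNA Pol II peaks and none in the other 5, and kis had 61.4% in Kismet peaks and 24.4% in RNA Pol II peaks. This was not seen for brm (1.78% in Brm peaks, 16.9% in RNA Pol II peaks), for Pc (none in Pc peaks) and for the gene of HP1 (none in HP1 peaks). Which subunit the RNA Pol II fusion carries is not given in the sources used here. Polr2A, the gene of the largest subunit, had 93.1% of its body in RNA Pol II peaks, 2.02% in Kismet peaks and none in the other 5 lists. The part of transgene DNA in these values was not tested.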
